A study of Homo sapiens with 5 samples.

Results

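The genes examined were the 3 pocket proteins (RB1, RBL1 and RBL2) and the CDK inhibitors CDKN1A, CDKN1B, CDKN1C, CDKN2A, CDKN2B, CDKN2C and CDKN2D, which are 10 of the 20098 protein-coding genes annotated on chromosomes 1 to 22 and X. They were chosen by name and role, with no threshold on their binding values, although earlier results of these data were known. For each gene, ChIP-Seq peaks of E2F1, MYC and Fra-1 were collected in its promoter windows (2 kb upstream to 2.5 kb downstream of any annotated transcription start site, TSS), in its gene body and in flanks of 10 kb, which together are called the locus here. The cells were untreated LM2 cells, a derivative of the human breast cancer line MDA-MB-231 that metastasizes to the lung, and all libraries came from this line alone. Each factor had 1 ChIP library (1 antibody each for E2F1, MYC and Fra-1) and all were compared with the same input DNA. Without replicates there is no spread between cultures, so no test is given, and intervals cover the counting error of the ChIP pileup only. The EZH2 ChIP library was not used here.

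Pocket proteins bind E2F transcription factors and hold genes of the G1 to S transition silent until cyclin-dependent kinases (CDKs) phosphorylate them. CDK inhibitors of the INK4 family (CDKN2A to CDKN2D) block CDK4 and CDK6, whereas those of the Cip/Kip family (CDKN1A to CDKN1C) bind a broader range of cyclin-CDK complexes. MYC binds E-boxes and drives proliferation genes, and Fra-1 (FOSL1) is a subunit of the AP-1 factor, so these genes are brakes on the program that E2F1 and MYC are known to promote.

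The summits on which the results below turn are shown first, each on the strand of its gene and in hg19 coordinates. At RBL1, the sequence just upstream of the TSS (chr20:35724401-35724460, minus strand) held the strongest E2F1 summit of the pocket proteins and the only MYC summit among them. At CDKN2D, the windows around the E2F1 summit (chr19:10679889-10679989, minus strand) and the MYC summit (chr19:10680256-10680356, minus strand) upstream of the gene are given. Capitals mark E2F motifs (TTTCCCGC, TTTCGCGC, TTTGCCGC or TTTGGCGC) or the E-box CACGTG, each searched on both strands.
RBL1, E2F1 and MYC summits: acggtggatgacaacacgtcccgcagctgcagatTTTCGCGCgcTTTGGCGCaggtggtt
CDKN2D, E2F1 summit: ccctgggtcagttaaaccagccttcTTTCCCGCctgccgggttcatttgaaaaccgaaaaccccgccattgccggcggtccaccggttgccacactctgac
CDKN2D, MYC summit: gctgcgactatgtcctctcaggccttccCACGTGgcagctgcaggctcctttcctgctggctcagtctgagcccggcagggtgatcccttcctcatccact

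The 3 Fra-1 summits in the first intron of CDKN1A (plus strand) lay in chr6:36647161-36647261, chr6:36647962-36648062 and chr6:36648288-36648388. They are shown because they were the only Fra-1 peaks in the promoter windows of these genes. Capitals mark the AP-1 motif TGACTCA, searched on both strands.
CDKN1A, Fra-1 summit 1: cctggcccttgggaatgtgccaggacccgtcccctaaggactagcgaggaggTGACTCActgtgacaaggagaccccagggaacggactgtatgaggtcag
CDKN1A, Fra-1 summit 2: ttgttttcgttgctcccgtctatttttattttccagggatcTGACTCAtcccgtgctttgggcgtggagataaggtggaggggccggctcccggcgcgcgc
CDKN1A, Fra-1 summit 3: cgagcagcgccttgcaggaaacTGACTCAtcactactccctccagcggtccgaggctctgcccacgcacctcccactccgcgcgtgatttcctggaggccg

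In the full lists, E2F1 had a promoter peak at 8 of the 10 genes, against 61.3% of all protein-coding genes. MYC had one at 3 (RBL1, CDKN2C and CDKN2D), against 17.8% of all genes, and Fra-1 at 1 (CDKN1A), against 13.2%. No gene of the 10 had promoter peaks of all 3 factors, which 4.67% of protein-coding genes did. The counts are small and none of these differences was tested. They also depend on the lengths of the lists: with each list reduced to its 4867 strongest peaks, E2F1 was left at 5 of the 10 promoters, MYC at 3 and Fra-1 at 0. The shares of all genes above are for the full lists and are no reference for these reduced counts. By family, E2F1 promoter peaks of the full list were found at 3 of 3 pocket proteins, 3 of 3 Cip/Kip inhibitors and 2 of 4 INK4 inhibitors. MYC peaks were found at 1, 0 and 2 of these genes, respectively, and Fra-1 peaks at 0, 1 and 0.

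Over the whole loci, E2F1 had 45 peaks at 8 genes (71.9% of all genes had a locus peak), of which 25 lay in promoter windows. Of the other 20, 10 lay in the promoter window of another protein-coding gene. MYC had 6 peaks at 4 genes (25.0% of all genes), with CDKN1C added to the 3 above. Fra-1 had 4 peaks at 2 genes (33.5% of all genes), with CDKN2D added to CDKN1A. With flanks of 50 kb, Fra-1 was at 5 loci and MYC at 4. The shares of all genes given here are for flanks of 10 kb, so the 50 kb counts have no reference and are not a result about these genes. CDKN2D was the only one of the 10 genes with locus peaks of all 3 factors, and CDKN2A and CDKN2B had no peak of any factor (25.5% of all genes had none). An E2F1 peak overlapped 5 of the 6 MYC peaks and 4 of the 4 Fra-1 peaks in these loci, against 96.1% of all MYC peaks and 61.5% of all Fra-1 peaks, so this overlap is not a result about these genes.

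The libraries differed in size, and this bears on every count. The deposited lists held 36933 E2F1, 4867 MYC and 17320 Fra-1 peaks, from 18056168, 23853621 and 12931227 tags kept by the peak caller, against 10758036 for the input. A peak that was not called does not show that a factor was not bound. Fold enrichment (the pileup at the summit over the local background) is therefore ranked within a library only, as the percentile of a gene's strongest promoter peak among all genes with a promoter peak of that factor. Over all such genes the median of the strongest E2F1 peaks was 22.02 (quartiles 13.4 and 32.5). It was 7.22 in the MYC library (6.003 and 8.97) and 8.38 in the Fra-1 library (6.45 and 11.7).

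**Figure D1:**
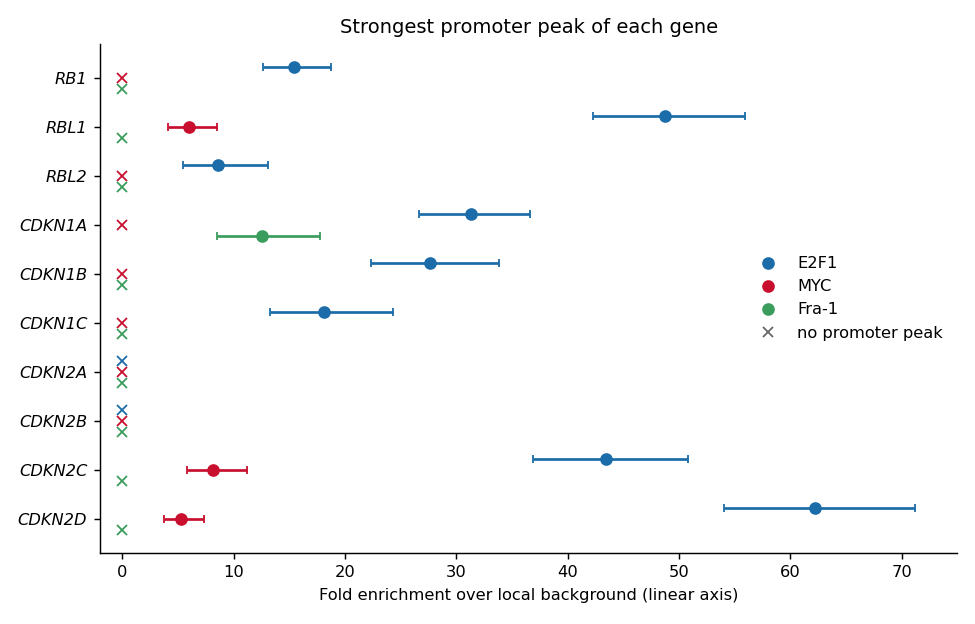
Fold enrichment over local background (linear axis) of the strongest promoter peak at each of the 10 genes, for E2F1, MYC and Fra-1. Points are single peaks with the 95% interval for counting error of the pileup, and crosses at 0 stand for genes without a promoter peak. E2F1 values run from 8.61 at RBL2 to 62.2 at CDKN2D, and CDKN2A and CDKN2B have crosses only.

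The 3 pocket proteins all had E2F1 promoter peaks but of very different fold enrichment. RBL1 (chr20:35624752-35724400), which encodes p107 and partners mainly with the repressive E2Fs, had an E2F1 peak of 48.8-fold (95% interval 42.3 to 56.0) whose summit lay 10 bp upstream of the TSS. This was at the 94.3rd percentile of genes bound by E2F1 at their promoter. RB1 (chr13:48877880-49173572), the retinoblastoma tumor suppressor, had a peak of 15.4-fold (12.6 to 18.7) 181 bp upstream, at the 31.0th percentile. Its pileup was 60.0 over a local background of 2.95, against 119.0 over 1.46 at RBL1. The lower fold and rank of RB1 thus came from both a lower pileup and a higher background. RBL2 (chr16:53467889-53525560), which encodes p130, the pocket protein of resting cells, had 3 weak peaks of 8.61-, 4.67- and 5.91-fold within 585 bp of the TSS. The strongest was at the 11.0th percentile, with an interval of 5.43 to 13.1. The intervals of the strongest peaks at RBL1 and RB1 and those at RBL1 and RBL2 did not overlap, whereas RB1 (from 12.6) and RBL2 (to 13.1) overlapped slightly. Thus the pocket protein with the most E2F1 enrichment was RBL1.

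RBL1 was also the pocket protein with an E2F motif at its summit and the one with a MYC peak. The motifs TTTGGCGC and TTTCGCGC in the sequence above were centered 2.5 and 12.5 bp from the E2F1 summit. The MYC peak reached 5.98-fold (4.09 to 8.52, 23.3rd percentile), and its summit lay 12 bp from that of E2F1, with the center of TTTCGCGC 0.5 bp away and no CACGTG within 50 bp. E2F motifs lay within 50 bp of 1.81% of all MYC summits and of 1.68% of all E2F1 summits. A second E2F1 peak of RBL1 (6.29-fold) lay in the first intron.

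At RB1 no E2F motif lay within 100 bp of the E2F1 summit, and the absence of these letters says nothing of E2F1 itself. The other E2F1 peak in the RB1 locus had a higher fold (33.8-fold, 27.4 to 41.2) but lay 229113 bp downstream of the TSS. It was in the promoter window of RCBTB2, a gene inside the RB1 gene body as annotated here. The pileups were similar, at 56.0 there and 60.0 at the RB1 promoter, over local backgrounds of 0.686 and 2.95. The higher fold at the neighbor's promoter therefore came from a lower background and not from a higher pileup. No Fra-1 summit was nearer than 40.4 kb to the TSS of RB1, 106.5 kb to that of RBL1 or 334.4 kb to that of RBL2.

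All Cip/Kip genes had an E2F1 summit within 56 bp of the canonical TSS, of intermediate strength. The summit lay 56 bp downstream of the TSS at CDKN1A (31.3-fold, 26.6 to 36.6), 49 bp at CDKN1B (27.6-fold, 22.3 to 33.8) and 25 bp at CDKN1C (18.2-fold, 13.3 to 24.3). They were at the 72.7th, 64.6th and 38.7th percentile. The intervals of CDKN1A and CDKN1B overlapped, as did those of CDKN1B and CDKN1C, and CDKN1A and CDKN1C did not overlap. No MYC peak lay in the promoter windows of these 3 genes.

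CDKN1A (chr6:36644237-36655114), which encodes p21, a CDK inhibitor induced by many stresses, was the only gene of the 10 with a Fra-1 promoter peak, which was lost when the Fra-1 list was reduced to its 4867 strongest peaks. Its Fra-1 peaks reached 10.8-fold (6.98 to 16.2), 12.5-fold (8.55 to 17.8) and 9.24-fold (6.14 to 13.4), at 720, 1521 and 1847 bp downstream of the TSS. The 3 intervals overlapped, and a difference between the peaks was not tested. Of all protein-coding genes 0.746% had 3 or more Fra-1 promoter peaks, a count chosen after the values of CDKN1A were seen. Each of the 3 summits had a TGACTCA, centered 5, 6 and 25 bp away, as the capitals above show, and 53.3% of all Fra-1 summits had this motif within 50 bp.

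E2F1 was also present along the first intron of CDKN1A. Besides the peak at the TSS it had peaks of 6.09-fold 212 bp upstream, 4.504-fold at 1057 bp and 28.6-fold (23.7 to 34.2) at 1831 bp. The interval of the last overlapped that of the peak at the TSS. Its summit lay 16 bp from the third Fra-1 summit and 9 bp from the center of the same TGACTCA, a motif found at 12.2% of all E2F1 summits. The second Fra-1 peak lay inside the same E2F1 peak, with its summit 310 bp from that of E2F1. The first Fra-1 peak lay inside the E2F1 peak at the TSS. Its nearest E2F1 summit, 337 bp away, was that of the separate 4.504-fold peak. None of the E2F1 summits at CDKN1A had an E2F motif in the 50 bp to either side. A weak E2F1 peak (5.94-fold) lay 11450 bp upstream, and the nearest MYC summit was 196 kb away.

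**Figure D2:**
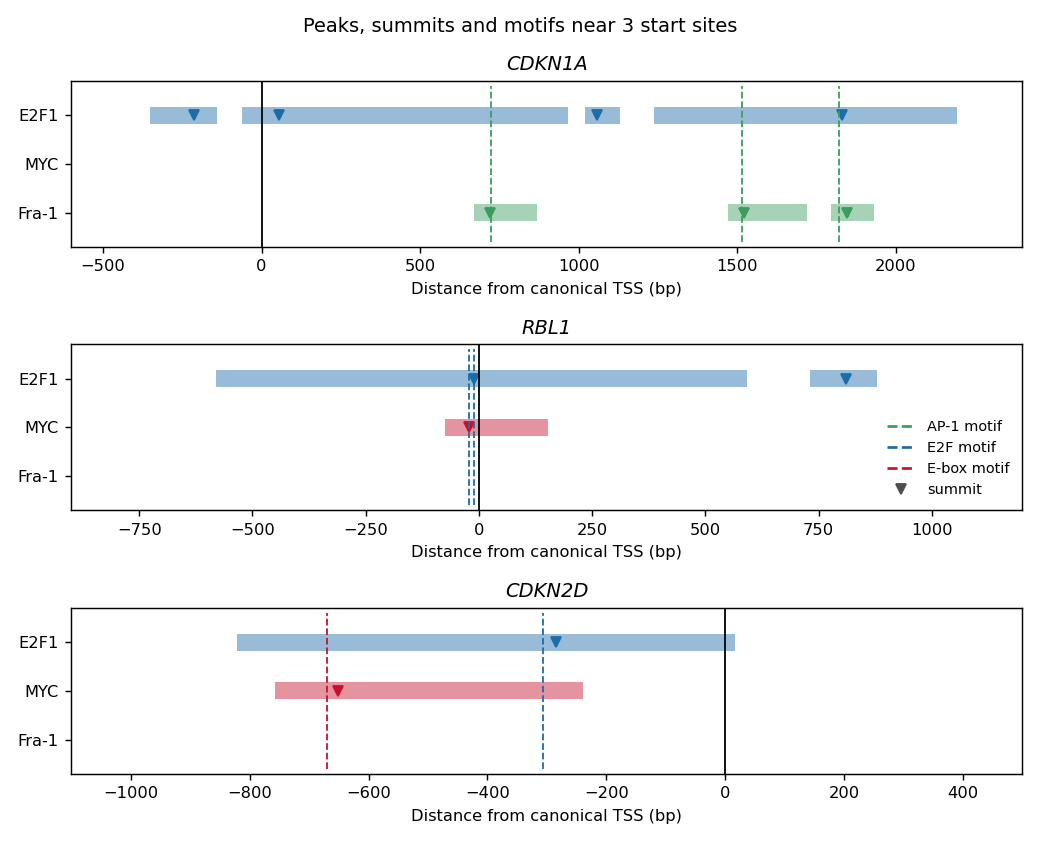
Peaks (bars), summits (triangles) and motifs (dashed lines) along CDKN1A, RBL1 and CDKN2D, by distance from the canonical TSS in bp (solid line) in the direction of transcription, with 1 row for each factor. At CDKN1A the third Fra-1 summit and an E2F1 summit share an AP-1 motif, at RBL1 the E2F1 and MYC summits sit on 2 E2F motifs, and at CDKN2D the E2F1 and MYC summits are 367 bp apart, each with its own motif.

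CDKN1B (chr12:12838432-12875303), which encodes p27, had 6 E2F1 promoter peaks, against a median of 2 per gene with any. These were counted over the windows of its 8 annotated start positions, and the median is not matched for the number of starts. The peak at the TSS was flanked by one of 15.2-fold 910 bp upstream and by weaker ones of 8.16-, 9.58- and 6.18-fold. The remaining promoter peak (26.5-fold) lay 21152 bp upstream, at the start of longer transcripts and in the promoter window of GPR19, so the gene it serves cannot be told from its position. Downstream of the gene, 6 more E2F1 peaks of 8.21- to 37.4-fold lay 6821 to 9410 bp from the TSS, all in promoter windows of APOLD1. One of these (29.0-fold) had an E2F motif 20.5 bp from its summit. The nearest MYC and Fra-1 summits were 69.4 and 71.3 kb from the TSS.

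CDKN1C (chr11:2904443-2907005), which encodes p57, an inhibitor from an imprinted region, showed the opposite arrangement. A single promoter peak at the TSS was accompanied by 6 E2F1 peaks between 5092 and 7595 bp upstream. The strongest of these reached 44.6-fold (36.6 to 53.8) and its interval lay above that of the promoter peak. This upstream stretch overlapped no promoter window of another protein-coding gene, and it held the only MYC peak of the Cip/Kip loci, of 6.81-fold (4.66 to 9.70) at 6695 bp upstream. Over the full lists, a CACGTG lay within 50 bp of 16.8% of all MYC summits and of 2.56% of all E2F1 summits. Here the MYC summit lay 12 bp from an E2F1 summit of 9.14-fold. A CACGTG was centered 16.5 bp from the MYC summit and 4.5 bp from the E2F1 summit. The sequence around this MYC summit (chr11:2913650-2913750, minus strand) is given with the E-box in capitals, since it is the only MYC peak in these loci outside promoter windows that E2F1 overlapped and that held a motif.
CDKN1C, upstream MYC summit: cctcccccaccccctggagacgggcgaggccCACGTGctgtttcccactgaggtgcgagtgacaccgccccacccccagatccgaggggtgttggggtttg

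The nearest Fra-1 summit to CDKN1C was 13.1 kb upstream of its TSS, just beyond the 10 kb flank.

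**Figure D3:**
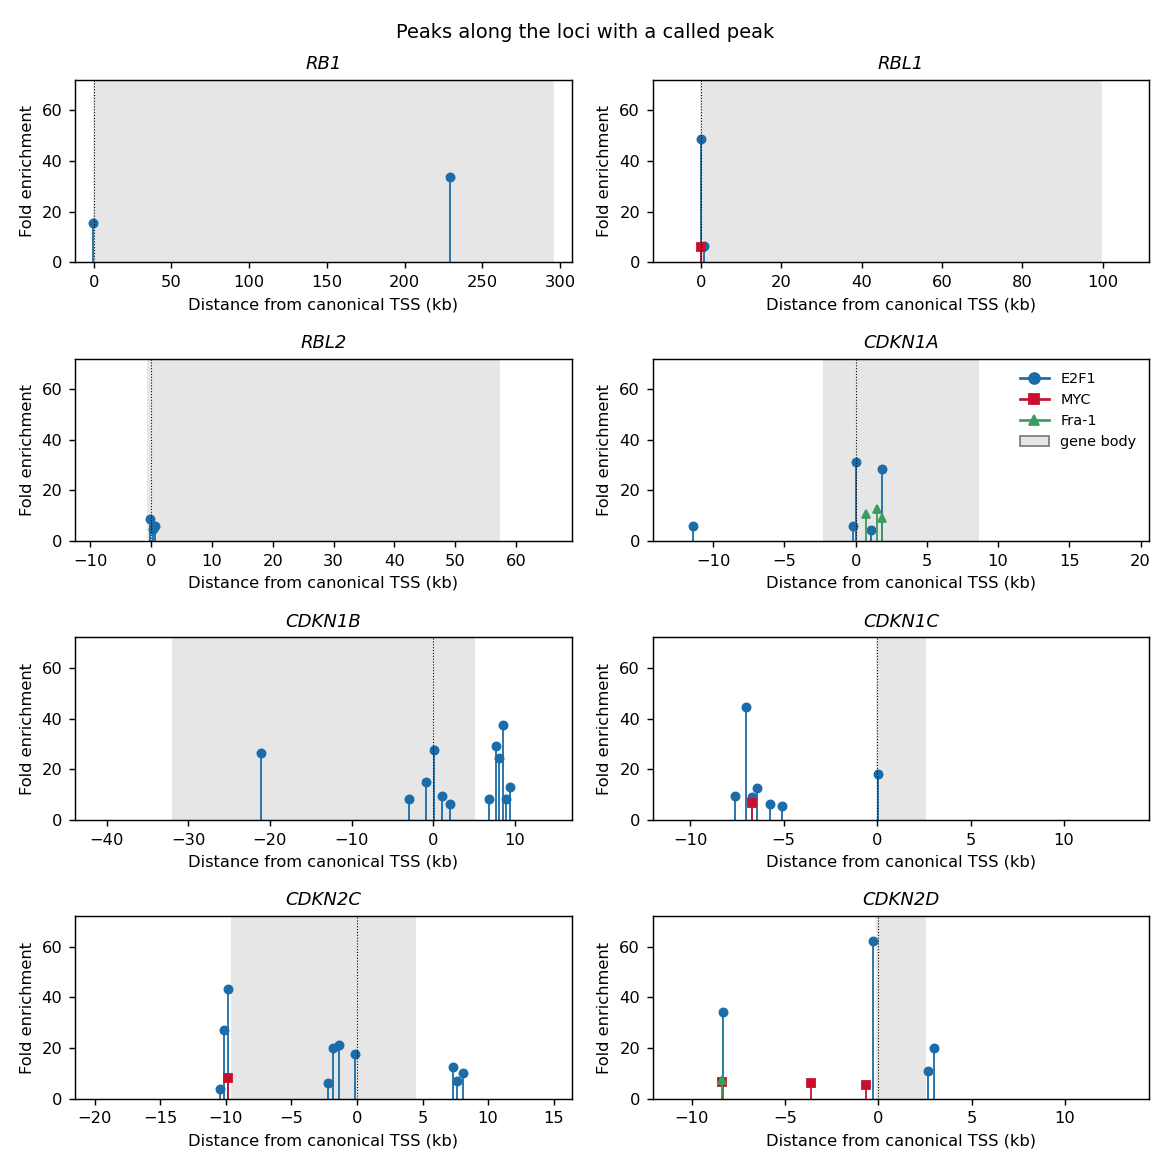
Fold enrichment (linear axis) of every peak in the 8 loci with a peak, by distance of its summit from the canonical TSS in kb, in the direction of transcription, with the gene body in grey. Circles are E2F1, squares MYC and triangles Fra-1. E2F1 peaks form clusters downstream of CDKN1B and upstream of CDKN1C, and peaks of all 3 factors meet 8330 to 8392 bp upstream of CDKN2D.

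The INK4 genes fell into 2 pairs. CDKN2D and CDKN2C, which encode p19 and p18, both had strong E2F1 promoter peaks (at or above the 90.3rd percentile, that of CDKN2C at a distal start shared with FAF1) and 2 of the 3 MYC promoter peaks. CDKN2A and CDKN2B, which encode p16 (and ARF from a second reading frame) and p15, had none of either factor.

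CDKN2D (chr19:10677136-10679735) had an E2F1 peak of 62.2-fold (54.0 to 71.2) with its summit 284 bp upstream of the TSS, at the 98.7th percentile. A TTTCCCGC was centered 21.5 bp from it. Together with those at RBL1 this was the only E2F motif at the E2F1 promoter summits of the 10 genes, which made 2 of 25. A MYC peak of 5.29-fold (3.71 to 7.37) overlapped the E2F1 peak, but its summit lay 367 bp further upstream, at the CACGTG shown above. Its rank among MYC-bound promoters was low (9.59th percentile) while that of E2F1 was near the top.

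Further MYC peaks of CDKN2D lay 3592 bp (6.33-fold, 3.93 to 9.86) and 8347 bp (6.66-fold, 4.23 to 10.1) upstream. The first held a CACGTG centered 37.5 bp from its summit and was the only MYC peak in these loci that no E2F1 peak overlapped. The second met an E2F1 peak of 34.3-fold and a Fra-1 peak of 7.60-fold (4.15 to 13.1) in the promoter window of AP1M2, so that peaks of all 3 factors in the CDKN2D locus lay at the start of another gene. There the Fra-1 summit was 62 bp from that of E2F1 and 45 bp from that of MYC, and none of the 3 had its own motif within 50 bp. E2F1 peaks of 20.1- and 10.8-fold downstream of CDKN2D lay in the promoter window of KRI1.

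CDKN2C (chr1:51426417-51440306) had 7 E2F1 promoter peaks, the most of the 10 genes, at 2 sets of start sites. At the distal start, the strongest reached 43.4-fold (36.9 to 50.8, 90.3rd percentile), with its summit 332 bp upstream of the nearest TSS and 9832 bp upstream of the canonical one. It was flanked by peaks of 27.3- and 4.01-fold. All 3 also lay in the promoter window of FAF1, so they cannot be assigned to CDKN2C alone. Around the canonical start the peaks reached 17.5-, 21.04-, 19.9- and 6.09-fold between 178 and 2211 bp upstream. The first 3 of these had pileups of 69.0, 63.0 and 58.0 over local backgrounds of 2.99, 2.04 and 1.97. The distal peaks of 43.4- and 27.3-fold had pileups of 91.0 and 54.0 over backgrounds of 1.12 and 1.01. The lower fold at the canonical start thus went with a higher background, and only the 43.4-fold peak had a higher pileup. The MYC peak (8.17-fold, 5.79 to 11.3, 65.7th percentile) was found at the distal start only, 28 bp from the E2F1 summit. No motif of either factor lay within 50 bp of these summits, although a CACGTG lay within 100 bp of the MYC summit. A further 3 E2F1 peaks of 6.87- to 12.5-fold lay 7312 to 8073 bp downstream of the canonical TSS, in no other promoter window. The nearest Fra-1 summit was 361.2 kb away.

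**Figure D4:**
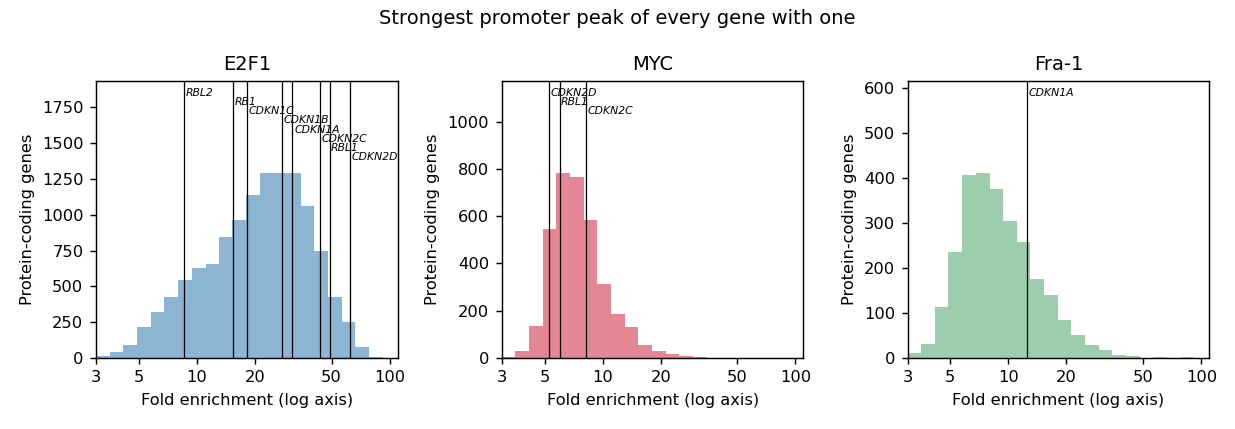
Number of protein-coding genes by fold enrichment (log axis) of their strongest promoter peak, for E2F1, MYC and Fra-1. Lines mark the genes examined, which for E2F1 run from RBL2 in the lower tail to CDKN2D in the upper tail, with 5 of 8 at or above the 50th percentile. By definition 50% of all genes with a promoter peak are, so this count is not a result about these genes. CDKN2C is among the 5 through its distal peak shared with FAF1, and its strongest peak around the canonical start was at the 47.0th percentile.

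CDKN2A (chr9:21967751-21995300) and CDKN2B (chr9:22002902-22009304) are neighbors on the short arm of chromosome 9, and their starts were CpG-rich like most of the others. The 1 kb around the canonical TSS was 62.6% G and C at CDKN2A and 61.9% at CDKN2B, with 0.78 and 0.83 of the CpG that this composition would give. By these values 9 of the 10 starts were CpG-rich (at least 50% G and C and a ratio of at least 0.6, with CDKN2C the exception), and 7 of those 9 had an E2F1 promoter peak, against 80.2% of the 12907 protein-coding genes with a CpG-rich start. The genes without E2F1 were CDKN2A and CDKN2B. The nearest E2F1 summit was 1290.1 kb from the CDKN2A TSS, the nearest Fra-1 summit also 1290.1 kb and the nearest MYC summit 2594.8 kb.

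These genes lay in a stretch of 4.41 Mb without a peak of any factor (chr9:20685101-25094643). It was the 20th longest of 43648 gaps between neighboring peaks, whose median was 12.7 kb. On the telomeric side it ended 1.29 Mb from the CDKN2A TSS at an E2F1 peak of 19.7-fold in the promoter window of FOCAD. On the other side it ended 3.12 Mb away at a Fra-1 peak of 7.57-fold. The stretch held the starts of 23 protein-coding genes, most of them type I interferon genes, and 6 of the starts were CpG-rich: those of HACD4, KLHL9, MTAP, CDKN2A, CDKN2B and DMRTA1. MTAP, which encodes an enzyme of the methionine salvage pathway, is the nearest coding gene to CDKN2A on the telomeric side. The numbers that the peak caller gave to successive peaks ran without a break in all 3 lists, across this stretch as elsewhere.

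Loss of this region is a known event in cancer cell lines, MDA-MB-231 included, but copy number was not measured here, nor was the share of this sequence that was masked or could be mapped uniquely. Their part in the missing peaks was not tested. Of the 19 longer gaps, 9 held 6 or more protein-coding starts and 5 held 0 or 1. Of gaps of 50 kb or more, 4 held at least 6 CpG-rich starts, this one included, and the most were 79, in a gap on chromosome 6, for which masking was not measured either.

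**Figure D5:**
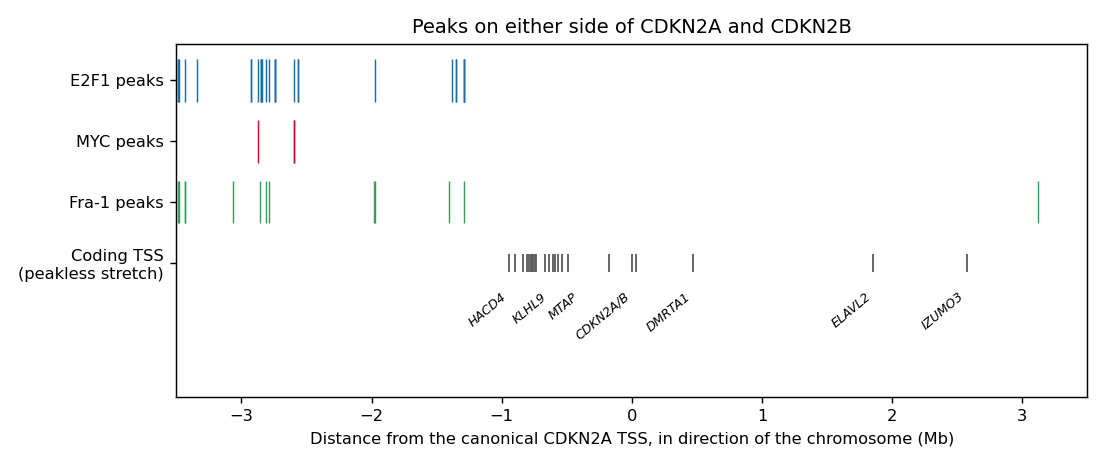
Positions of E2F1, MYC and Fra-1 peaks (ticks) by distance in Mb from the canonical CDKN2A TSS, in the direction of increasing chromosome coordinates, and of the 23 protein-coding starts in the stretch without peaks. Peaks of all 3 factors stop on the left, the last of them 1.29 Mb from CDKN2A, and a single Fra-1 peak at 3.12 Mb is seen on the right.

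For context, promoters of 29 other genes of the pathway were counted in the same way, from a list of names. E2F1 had a promoter peak at 29 of 29, MYC at 11 and Fra-1 at 1, and none had all 3, where 61.3%, 17.8%, 13.2% and 4.67% of all protein-coding genes did. The list was not restricted to CpG-rich starts, at which the E2F1 share was 80.2%. Among the E2F and DP factors, E2F1 was at 10 of 10 and MYC at 4 of 10. E2F1 enrichment ran from 6.95-fold at TFDP2, an E2F partner, to 57.0-fold at E2F3. In between were E2F1 itself (46.6), E2F8 (38.6), E2F6 (25.7), TFDP1 (24.6), E2F7 (19.2), E2F5 (16.0), E2F2 (13.6) and E2F4 (11.5). Among the cyclins and kinases that the CDK inhibitors restrain, E2F1 was at 9 of 9 and MYC at 4 of 9. E2F1 enrichment ran from 9.70-fold at CCND2 to 66.1-fold at CCND1 (cyclin D1). Of the 2 kinases that INK4 inhibitors block, CDK4 had 42.7-fold and CDK6 16.3-fold. The MYC peaks were at CCND1, CCND3, CCNE2 and CDK4. The strongest E2F1 promoter peaks ran from 6.95- to 66.1-fold at the 29 genes and from 8.61- to 62.2-fold at the 8 pocket protein and CDK inhibitor genes with one, with none at CDKN2A and CDKN2B.

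RBL1 and RBL2 form a repressor complex with the MuvB proteins, to which MYBL2 (B-Myb) binds in their place later in the cell cycle. In this group E2F1 was at 6 of 6, MYC at 2 of 6 and Fra-1 at 1 of 6, namely MYBL2 (18.4-fold). Among the turnover and activation genes, E2F1 was at 4 of 4 and MYC at 1 of 4, which was CDC25A, a phosphatase that activates CDKs. There E2F1 reached 63.9-fold. SKP2 and CKS1B, which mark p27 for degradation, had 36.1- and 48.7-fold E2F1 enrichment, against 27.6-fold at the CDKN1B TSS.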

How the data were processed

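ChIP-Seq of E2F1, MYC and Fra-1 in untreated LM2 cells was analysed, with 1 library per factor. Per the methods and labels, the authors' pipeline used Trimmomatic 0.27 for trimming and Bowtie 0.12.5 for alignment, to hg19 with masked sequence, of which only reads with 1 place in the genome and no duplicates were kept. MACS2 2.0.10 then called peaks library by library, each against the same input DNA, with q-values up to 0.01, and no samples were pooled. The deposited signal is the pileup at the summit, taken here to be scaled to the smaller library. This scaling is an assumption, and without it the 95% intervals would be wider. The deposited fold enrichment is a ratio of pileup to local background with a pseudocount of 1, and the deposited p- and q-values are −log10 values. The pileup sets the precision, given as a 95% Poisson interval of the unscaled pileup divided by the background, which ignores error in the input and is approximate.

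From these lists, promoter windows, gene bodies and flanks were taken from GENCODE 44 mapped to GRCh37, an overlap of 1 bp counted, and the canonical TSS was Ensembl's. Motifs were searched within 50 bp of summits in the GRCh37 sequence, with UTR bases left out of the sequence printed for RBL1. A CpG-rich start was defined over 500 bp on either side of the TSS, a definition added after the values were seen. The genes named were the 10 genes, the genes whose windows their peaks overlap, the pathway lists and the protein-coding genes around CDKN2A. The genes and lists were chosen with earlier results of these data known. The alternatives were a −log10 q or a fold of at least 5, equal numbers of peaks, other windows, start sites and flanks, summits in place of overlaps and a motif window of 100 bp. The procedures were tested on simulated data. Python 3.11.15, pandas 2.3.3, scipy 1.17.1 and pysam 0.24.0 were used. EZH2 and the browser-format copies of the lists, whose rows were identical, were left out.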

Additional observations from a re-analysis of the deposited data

How the results depend on the processing

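Of 51 alternative values, 45 held and 6 moved, counts being taken as moved when they changed by over 1.5 times and the length of the stretch without peaks at any change. With each list reduced to its 4867 strongest peaks, E2F1 promoter peaks were left at 5 genes (CDKN1A, CDKN1B, CDKN2C, CDKN2D and RBL1), Fra-1 peaks at 0 genes in promoters and 0 in loci, and the stretch without peaks around CDKN2A grew to 6.29 Mb, since this setting uses fewer peaks. Without flanks Fra-1 was found at 1 locus (CDKN1A), and with flanks of 50 kb at 5 (CDKN1A, CDKN1B, CDKN1C, CDKN2D and RB1). Shares of all protein-coding genes are not given for the reduced lists or the other flanks, so these changed counts are not a result about these genes. CDKN2A and CDKN2B had no peak with flanks of 50 kb either. MYC promoter peaks fell from 3 genes to 2 with a −log10 q of at least 5 (CDKN2D lost) and with 1 canonical start (CDKN2C lost). E2F1 promoter peaks stayed at the same 8 genes with other windows and start sites and with a −log10 q or fold of at least 5. Promoter peaks of all 3 factors were at 0 genes in each alternative, and the 6 promoter summits with their own motif became 7 within 100 bp. No paired analysis was possible because no comparison had replicates.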
